A study of Mus musculus with 9 samples.

Results

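Interferon-stimulated genes are the genes that cells switch on when an interferon reaches them, and 44 of them were followed in the ventricles of newborn mice. The list was chosen because its genes differed between library sets of these samples, so that difference is given here as a description, without a test. Of the 44 genes, 42 had a row in the count table, out of 38293 genes in all, and all 42 had counts high enough to be tested. Gbp5 and Gbp6 were not matched to a row.

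The samples were ventricles of mice at postnatal day 7 (P7), 1 RNA library each. The 5 control libraries came from Arid1a f/f mice, littermates that carry floxed alleles of Arid1a and no Cre. The 4 cKO libraries came from αMHC-Cre;Arid1a f/f mice, in which Cre recombinase under a cardiomyocyte promoter removes Arid1a, the gene of a SWI/SNF chromatin remodelling subunit, from cardiomyocytes and leaves the floxed gene in other cells of the tissue. All 9 mice thus shared the floxed alleles, and the study asked how loss of Arid1a changes the neonatal heart.

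Total counts were 31011055 to 40073801 per library. Arid1a was at 128 to 148 CPM (a gene's counts per 1e6 counts of its library after scaling) in controls and at 100.3 to 113 CPM in cKO, without overlap. The cardiomyocyte markers Tnnt2, Actn2, Myh6, Ryr2 and Tnni3 summed to 25400 to 33900 CPM over the 9 libraries. The libraries fell into sets by Rps3a3, a processed pseudogene of the ribosomal protein gene Rps3a1. In control 1, control 2 and cKO 1 to 3 (the Rps3a3-low set) Rps3a3 was at 0.345 to 0.521 CPM, and in control 3 to 5 and cKO 4 (the Rps3a3-high set) it was at 99.7 to 112 CPM. Rps3a1 went the other way, at 253 to 276 CPM in the Rps3a3-low and 70.8 to 75.7 CPM in the Rps3a3-high libraries. The labels give no batch, so what separates the sets is not known from them. Because the Rps3a3-low set holds 2 controls and 3 cKO and the Rps3a3-high set 3 controls and 1 cKO, a genotype comparison over all 9 libraries is not balanced over the sets.

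Type I interferons bind the receptor IFNAR, whose kinases JAK1 and TYK2 activate STAT proteins, among them STAT2. STAT2 and IRF9 are parts of a complex that binds the interferon-stimulated response element (ISRE) in promoters. Type II interferon, IFN-γ, acts through IFNGR, JAK1 and JAK2, and promoters that respond to it carry gamma-activated sites (GAS). The response reaches most cell types, so its genes can be read in a whole tissue without telling which cells carry them.

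Promoters were searched to show which of these elements the genes carry. RefSeq (GRCm38.p6) held the promoter of 32 of the 44 genes, and the 250 bases before the start were searched on both strands for an ISRE, spelled GAAA, any 2 bases, GAAA, and for a GAS, spelled TTC, any 3 bases, GAA, which may overlap each other. At least 1 ISRE match was present for 17 of the 32 genes (53.1%), against 936 of 27025 genes in the whole table (3.46%). A GAS match was present for 9 (28.1% against 8.13%), both for 7 (21.9% against 0.459%) and either for 19 (59.4% against 11.1%). A match is a stretch of letters and not a measured binding site, and the lack of one says only that the letters were not in this window. The promoters below were selected to set typical response genes (Isg15, Ifit1), GTPase genes with both elements (Igtp, Tgtp1), a GAS match alone (Irf1) and the gene with the smallest set difference (Trim25) side by side. They are written 5′ to 3′ in the direction of the gene, with matches to either motif in capitals.

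Isg15 promoter: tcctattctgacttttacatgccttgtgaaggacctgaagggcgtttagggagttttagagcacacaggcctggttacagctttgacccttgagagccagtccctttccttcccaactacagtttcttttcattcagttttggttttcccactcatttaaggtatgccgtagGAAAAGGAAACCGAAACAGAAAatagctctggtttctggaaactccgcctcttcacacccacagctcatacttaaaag
Ifit1 promoter: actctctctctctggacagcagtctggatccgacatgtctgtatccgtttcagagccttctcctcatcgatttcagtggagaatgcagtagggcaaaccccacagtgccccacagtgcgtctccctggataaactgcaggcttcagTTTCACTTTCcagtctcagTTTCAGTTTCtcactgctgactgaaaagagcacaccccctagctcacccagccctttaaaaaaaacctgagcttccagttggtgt
Igtp promoter: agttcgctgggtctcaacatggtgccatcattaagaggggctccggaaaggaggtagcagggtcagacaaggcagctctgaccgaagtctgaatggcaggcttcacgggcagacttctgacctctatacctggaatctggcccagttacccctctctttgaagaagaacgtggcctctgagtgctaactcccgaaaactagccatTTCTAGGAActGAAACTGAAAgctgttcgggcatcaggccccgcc
Tgtp1 promoter: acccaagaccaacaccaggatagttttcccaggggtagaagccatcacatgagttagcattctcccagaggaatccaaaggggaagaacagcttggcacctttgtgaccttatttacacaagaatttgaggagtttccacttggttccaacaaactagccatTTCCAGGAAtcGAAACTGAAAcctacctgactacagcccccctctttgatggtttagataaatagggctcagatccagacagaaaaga
Irf1 promoter: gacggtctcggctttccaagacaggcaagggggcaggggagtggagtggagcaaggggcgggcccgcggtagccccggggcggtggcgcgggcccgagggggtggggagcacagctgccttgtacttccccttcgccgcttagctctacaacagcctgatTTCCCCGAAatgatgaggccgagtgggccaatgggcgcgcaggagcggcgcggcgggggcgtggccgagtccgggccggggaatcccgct
Trim25 promoter: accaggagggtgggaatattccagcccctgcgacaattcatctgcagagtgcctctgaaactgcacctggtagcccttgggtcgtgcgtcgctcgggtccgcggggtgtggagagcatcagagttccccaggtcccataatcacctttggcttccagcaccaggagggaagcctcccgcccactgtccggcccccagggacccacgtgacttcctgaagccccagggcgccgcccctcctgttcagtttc

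The Isg15 window (chr4:156200819-156201068, minus strand) held 3 overlapping ISRE matches, and that of Ifit1 (chr19:34640639-34640888, plus strand) held 2 separate ones. The windows of Igtp (chr11:58199306-58199555, plus strand) and Tgtp1 (chr11:48992247-48992496, minus strand), like that of Irgm2, each held 1 GAS match followed closely by 1 ISRE match. The window of Irf1 (chr11:53769764-53770013, plus strand) held 1 GAS match and no ISRE match, and a further window listed for this gene (chr11:53770223-53770472) held neither. Gbp3, Ifit2 and Irf9 also had more than 1 window, and a gene was counted as holding a motif if any of its windows did. No match to either motif was in the Trim25 window (chr11:88999153-88999402, plus strand).

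The genes lie on 14 chromosomes, and 26 of them fall into 11 clusters with gaps of at most 1 Mb (GRCm38, GENCODE M21). The Ifit genes occupy chr19:34550694-34650009, Gbp7, Gbp3 and Gbp2 chr3:142530342-142638008, and Oas2, Oas3 and Oas1a chr5:120730333-120907521. Parp14, Dtx3l and Parp9 lie at chr16:35832874-35972605. The annotated spans of Igtp and Irgm2 overlap on the same strand at chr11:58199556-58222782, and those of Dtx3l and Parp9 overlap on opposite strands. The strand setting of the counting is not given, so reads in such overlaps are uncertain. The same holds for near-identical copies, among them Tgtp1 and Tgtp2, Gbp2 and Gbp2b, and the Oas1 genes.

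The 42 genes together summed to 1015 CPM in control 1, 4249 in control 2, 1868 in cKO 1, 1105 in cKO 2 and 2370 in cKO 3. In the Rps3a3-high set they summed to 532.8, 496.8 and 473.1 CPM in control 3 to 5 and 495.8 CPM in cKO 4. Every Rps3a3-low library thus lay above every Rps3a3-high library, and the Rps3a3-high libraries differed little among themselves. In bulk tissue a difference in the number of cells of a type and a difference in RNA per cell cannot be told apart.

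In the fit with genotype and library set as terms, all 42 genes were higher in the Rps3a3-low set, with a median log2 difference of 2.19. The median over all 15318 genes tested was 0. Past 1.5-fold and without overlap between the sets were 37 of the 42 genes (88.1%). Over all genes 1.96% were so in this direction and 0.274% in the other. The list was chosen on this contrast, so nothing is read from these shares. By role, the median log2 differences were 4.12 for immunity-related GTPases, 4.06 for chemokines, 3.16 for guanylate-binding proteins, 3.05 for IFIT proteins, 2.09 for oligoadenylate synthetases, 1.81 for other antiviral effectors, 1.71 for transcription factors, 1.64 for nucleic acid sensors and 1.15 for the ISG15 system and ubiquitin ligases. The remaining interferon-induced proteins had a median of 2.06.

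**Figure D1:**
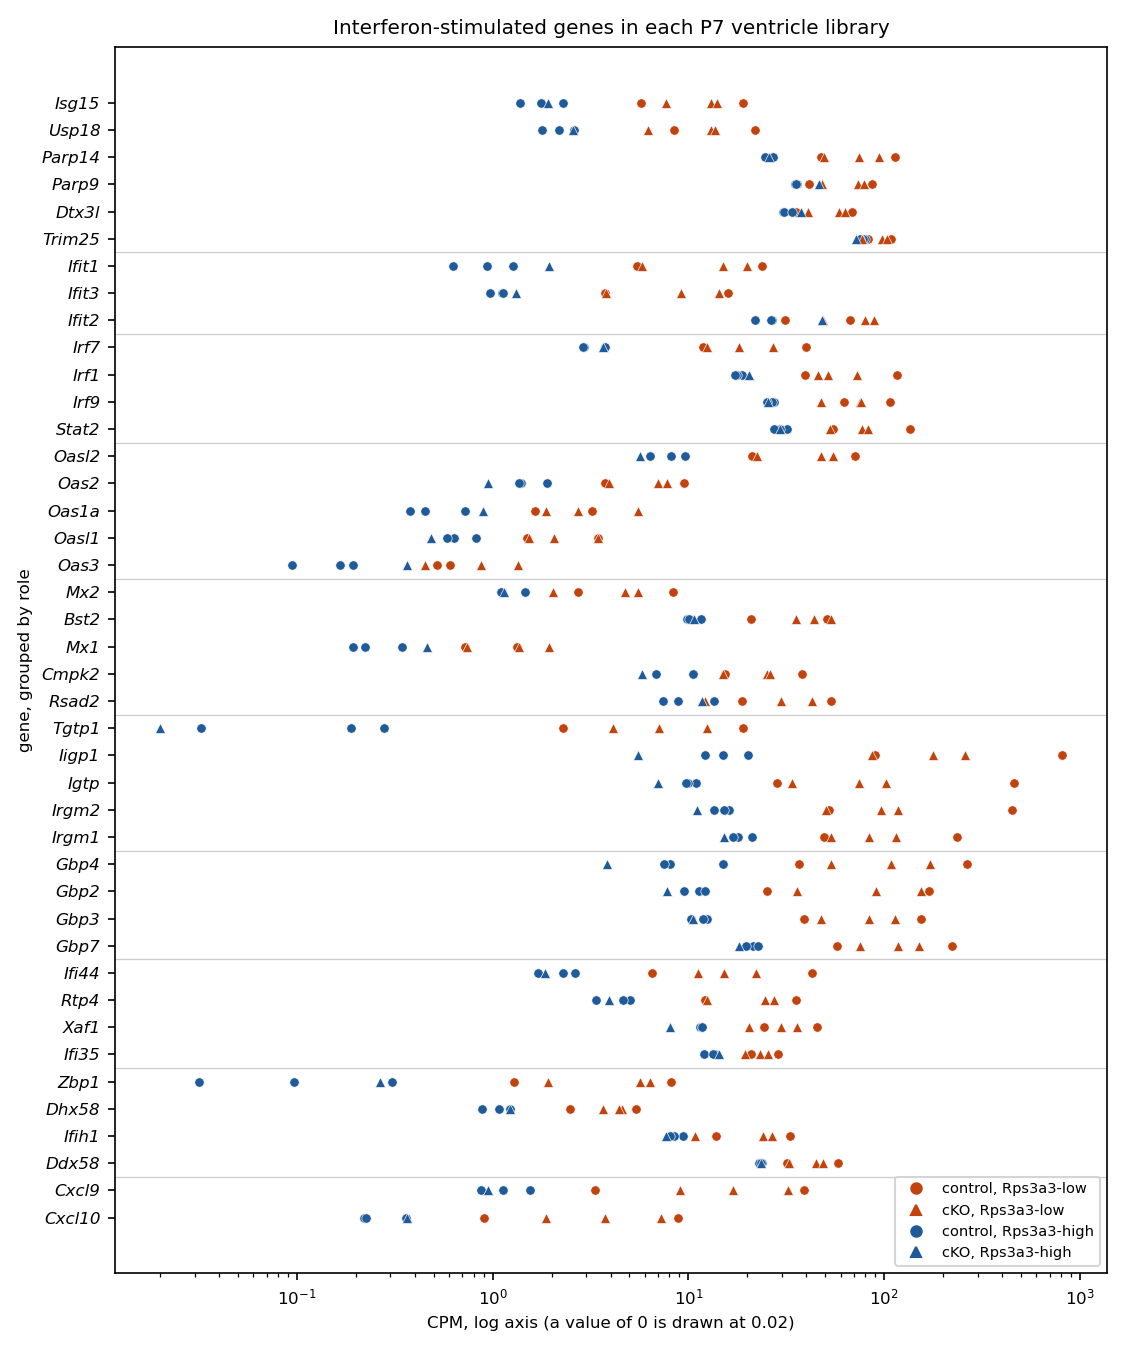
Levels of the 42 genes in each library, in CPM on a log axis, grouped by role, with controls as circles, cKO as triangles, the Rps3a3-low set in orange and the Rps3a3-high set in blue. For 37 genes the orange symbols all lie above the blue ones, and a value of 0 (Tgtp1 in cKO 4) is drawn at 0.02.

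The immunity-related GTPases and guanylate-binding proteins are interferon-inducible GTPases that attack the vacuoles in which intracellular pathogens live. Iigp1 was at 90 and 809 CPM in control 1 and 2 and at 178, 87.1 and 260 CPM in cKO 1 to 3. In the Rps3a3-high set it was at 20.1, 15.1 and 12.1 CPM in control 3 to 5 and at 5.50 CPM in cKO 4. The sets did not overlap, and the log2 difference was 4.89 (29.6-fold).

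Igtp was at 28.2 and 459 CPM in control 1 and 2, at 74.1, 33.7 and 102 CPM in cKO 1 to 3, at 10.9, 9.94 and 9.67 CPM in control 3 to 5 and at 6.97 CPM in cKO 4. Control 2 stood far above every other library for Igtp, and the log2 difference of 4.12 became 2.36 without it. Irgm2 was at 52.5 and 449 CPM in control 1 and 2, at 96.5, 50.2 and 118 CPM in cKO 1 to 3, and at 11.1 to 16.1 CPM in the Rps3a3-high set. Its log2 difference was 3.66, and 2.39 without control 2. Irgm1, which regulates the effector GTPases, was at 49.2 to 236 CPM against 15.2 to 21.2 CPM (2.76, and 1.93 without control 2).

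Tgtp1 had 76 and 659 counts in control 1 and 2 and 227, 156 and 427 counts in cKO 1 to 3. In the Rps3a3-high set it had 10, 6 and 1 counts in control 3 to 5 and 0 in cKO 4. The fitted log2 difference of 6.37 rests on these few counts. The sets did not overlap. It was 5.06 without control 2.

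Gbp4 was at 36.7 and 265 CPM in control 1 and 2 and at 109, 53.2 and 172 CPM in cKO 1 to 3. In the Rps3a3-high set it was at 15.0, 8.08 and 7.5 CPM in control 3 to 5 and 3.83 CPM in cKO 4, a log2 difference of 4.2. Gbp2 was at 25.1 and 170 CPM in control 1 and 2, at 91.2, 35.8 and 154 CPM in cKO 1 to 3, and at 7.75 to 12.2 CPM in the Rps3a3-high set (3.31). For these genes cKO 3 and control 2 were the highest libraries, and the sets stayed apart. Gbp3 (3.02) and Gbp7 (2.69) were arranged alike, at 39.0 to 155 against 10.3 to 12.5 CPM and at 57.5 to 221 against 18.1 to 22.6 CPM.

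Per kilobase of exon, Igtp had the highest mean level of the list in the Rps3a3-low set, 68.9 CPM per kb, followed by Iigp1 at 48.9, Bst2 at 45.3, Irgm2 at 41.5 and Gbp2 at 37.9. In the Rps3a3-high set the order was another one, led by Trim25 at 13.3 and Bst2 at 11.7 CPM per kb, with Igtp at 4.63 and Iigp1 at 2.26. The spread of Igtp over the Rps3a3-low libraries (139 ± 181 CPM, SD, n = 5) exceeds its distance from its neighbours in that order, and without control 2 it was at 29.4 CPM per kb, below Bst2 at 42.5 and Gbp2 at 30.4.

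Cxcl9 and Cxcl10 encode chemokines that draw CXCR3-bearing lymphocytes and lie next to each other at chr5:92321347-92348889. Cxcl9 was at 3.34 and 38.9 CPM in control 1 and 2, at 16.8, 9.07 and 32.2 CPM in cKO 1 to 3, at 1.55, 1.13 and 0.873 CPM in control 3 to 5 and at 0.944 CPM in cKO 4. Cxcl10 was at 0.903 and 8.80 CPM in control 1 and 2, at 3.76, 1.88 and 7.24 CPM in cKO 1 to 3, and at 0.220 to 0.363 CPM in the Rps3a3-high set. Both chemokine genes ranked the Rps3a3-low libraries alike, and their log2 differences were 4.21 and 3.92. Without control 2 these were 2.86 and 2.67.

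IFIT proteins bind viral RNA that lacks host cap marks. Ifit1 was at 5.48 and 23.9 CPM in control 1 and 2, at 15.1, 5.78 and 19.9 CPM in cKO 1 to 3, at 1.27, 0.629 and 0.938 CPM in control 3 to 5 and at 1.94 CPM in cKO 4 (log2 difference 3.47). Ifit3 was at 3.73 and 16.0 CPM, then 9.21, 3.79 and 14.3 CPM, against 1.11, 1.13, 0.970 and 1.31 CPM in the same order (3.05). Ifit2 differed less, at 31.2 and 66.8 CPM in control 1 and 2, 79.5, 48.5 and 88.4 CPM in cKO 1 to 3, 26.8, 26.5 and 21.8 CPM in control 3 to 5 and 48.3 CPM in cKO 4 (0.81). The sets overlapped for Ifit2, because control 1 lay below cKO 4.

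Isg15 encodes a ubiquitin-like modifier and Usp18 the protease that removes it. Isg15 was at 5.72 and 18.9 CPM in control 1 and 2, at 13.0, 7.66 and 14.0 CPM in cKO 1 to 3, at 1.77, 1.38 and 2.30 CPM in control 3 to 5 and at 1.91 CPM in cKO 4 (log2 difference 2.69). Usp18 was at 6.20 to 21.8 CPM against 1.78 to 2.60 CPM (2.52). Parp14, an ADP-ribosyltransferase, was at 47.6 to 114 against 24.6 to 27.1 CPM (1.58). The smallest differences of the list were also in this group. Trim25, the ubiquitin ligase that acts on RIG-I, was at 83.1 and 108 CPM in control 1 and 2, 97.4, 77.0 and 103 CPM in cKO 1 to 3, and 79.4, 78.3, 75.5 and 72.0 CPM in control 3 to 5 and cKO 4 (0.32, 1.25-fold). Dtx3l, a ubiquitin ligase, was at 35.6 and 68.2 CPM, then 59.1, 40.9 and 62.9 CPM, against 30.4, 30.8, 33.7 and 37.7 CPM (0.64). Its partner Parp9 was at 41.3 and 86.2 CPM, then 73.2, 48.4 and 78.8 CPM, against 35.9, 35.0, 35.5 and 46.4 CPM (0.72). The sets overlapped for all 3.

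The transcription factors that carry the response were all higher in the Rps3a3-low set and did not overlap. Irf7, which amplifies type I interferon production, was at 11.9 and 39.9 CPM in control 1 and 2, 18.1, 12.5 and 27.0 CPM in cKO 1 to 3, and 3.77, 2.93, 2.88 and 3.68 CPM in control 3 to 5 and cKO 4 (log2 difference 2.77). Irf1, which is induced by IFN-γ, was at 39.4 and 116 CPM, then 51.7, 45.8 and 72.5 CPM, against 18.8, 17.8, 17.2 and 20.4 CPM in the same order (1.86). Irf9 was at 62.0 and 107 CPM, then 75.4, 47.4 and 76.3 CPM, against 27.5, 26.8, 25.1 and 25.5 CPM (1.56). Those of Irf1 and Irf9 lay below the median of the list. Stat2 was at 54.8 and 135 CPM, then 76.6, 52.8 and 82.3 CPM, against 31.9, 29.3, 27.5 and 29.2 CPM (1.52), also below that median.

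Zbp1, a sensor of Z-form nucleic acids, was at 1.29 and 8.17 CPM in control 1 and 2, 5.69, 1.91 and 6.40 CPM in cKO 1 to 3, and 0.0315 to 0.305 CPM in the Rps3a3-high set (log2 difference 4.62). The RNA helicase sensors differed less, with Dhx58 (LGP2) at 1.84, Ifih1 (MDA5) at 1.43 and Ddx58 (RIG-I) at 0.90. Ddx58 was at 31.8 to 58.0 CPM against 22.9 to 23.7 CPM. The sets did not overlap for any of these 4 sensors.

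Oligoadenylate synthetases make the messenger that activates RNase L. All 5 had sets without overlap, with log2 differences from 1.59 for Oas3, at no more than 1.34 CPM, to 2.64 for Oasl2, at 21.2 to 70.8 CPM against 5.67 to 9.58 CPM. Oas2 (2.30), Oas1a (2.09) and Oasl1 (2) lay between. Of the other antiviral effectors, the dynamin-like Mx2 (2.06) and Mx1 (1.81), the tether of budding virions Bst2 (1.88) and the nucleotide kinase Cmpk2 (1.67) had sets without overlap. Rsad2, the gene of viperin and the neighbour of Cmpk2, overlapped because cKO 2 at 12.2 CPM lay below control 3 at 13.5 CPM (1.62).

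Ifi44 was at 6.50 and 42.8 CPM in control 1 and 2, 15.2, 11.2 and 22.2 CPM in cKO 1 to 3, and 1.71 to 2.64 CPM in the Rps3a3-high set (log2 difference 3.35). Rtp4 (2.45), the XIAP-associated factor Xaf1 (1.67) and Ifi35 (0.82) also had sets without overlap. Ifi35 was spread less over the Rps3a3-low libraries (1.49-fold) than any listed gene but Trim25, at 19.4 to 28.8 CPM against 12 to 14.4 CPM.

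**Figure D2:**
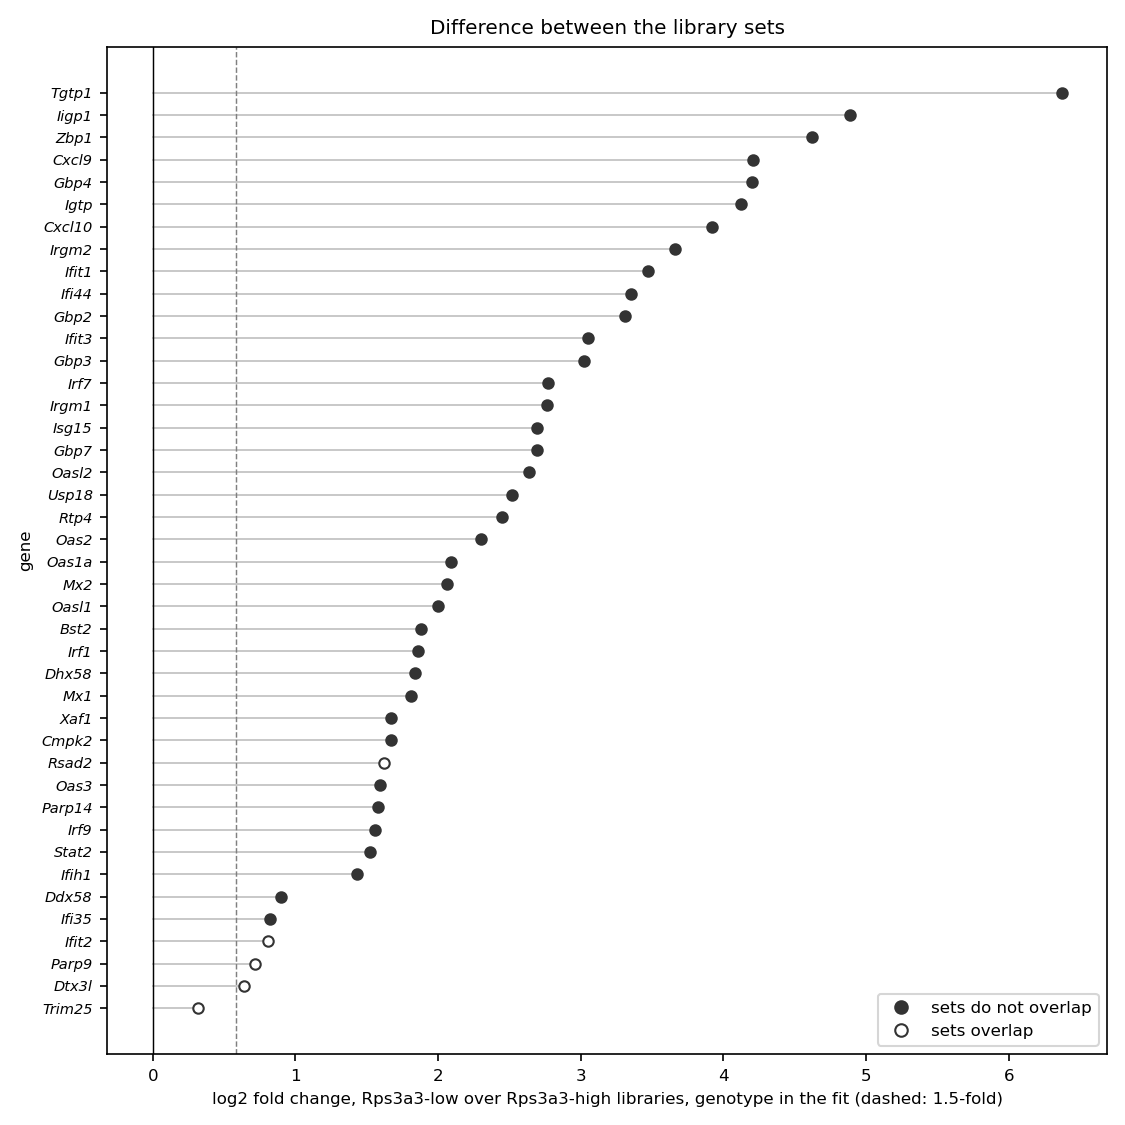
Log2 difference between the Rps3a3-low and the Rps3a3-high libraries for each of the 42 genes, ordered by size, from the fit with genotype and library set as terms; filled points mark genes whose sets did not overlap and the dashed line marks 1.5-fold. Values run from 0.32 for Trim25 to 6.37 for Tgtp1, and the 5 open points are Rsad2, Ifit2, Parp9, Dtx3l and Trim25.

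Without control 2 the median log2 difference was 1.86 in place of 2.19, and 37 genes were past 1.5-fold without overlap. For 16 of the 42 genes the difference itself became smaller by more than 1.5-fold without this library. Beside those given above they were Iigp1 (3.65), Zbp1 (3.61), Gbp4 (3.23), Ifit1 (2.67), Gbp2 (2.37), Gbp3 (2.34), Ifi44 (2.31), Ifit3 (2.29), Irf7 (2.14) and Gbp7 (2.04). Leaving out another library moved only Tgtp1 this far, to 7.09 without control 1 and 7.11 without control 3. Among the control libraries alone, control 1 and 2 against control 3 to 5, 36 of the 37 genes tested were past 1.5-fold without overlap, with a median of 2.18, where 3.7% of all genes were so in this direction.

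The Rps3a3-low libraries also differed from each other. The ratio of the highest to the lowest of the 5 libraries had a median of 3.32 over the genes and ran from 1.41 for Trim25 to 16.3 for Igtp. In the 4 Rps3a3-high libraries the median ratio was 1.47. Control 2 was the highest library for 36 of the 42 genes, and control 1 was the lowest for 29 and cKO 2 for 13. The median log2 deviation from a gene's mean over the 5 libraries was -0.72 in control 1, 0.86 in control 2, 0.17 in cKO 1, -0.62 in cKO 2 and 0.40 in cKO 3. The highest and the lowest library of the Rps3a3-low set were therefore both controls. They differed in Xist, a marker of female animals, at 745 CPM in control 2 and 0.0903 CPM in control 1. Xist was at 880 CPM in cKO 3, the next highest library by summed level, and at 0.156 and 0.106 CPM in cKO 1 and 2.

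Control 2 did not stand apart evenly. Its level relative to the next highest Rps3a3-low library had a median of 3.11 for the 5 immunity-related GTPases, from 1.54 for Tgtp1 to 4.52 for Igtp. It was 1.54 for the transcription factors, 1.41 for the guanylate-binding proteins, 1.21 for the chemokines, 1.12 for the IFIT proteins and 1 for the oligoadenylate synthetases. Oas3 was lower in control 2 than in cKO 1, 0.521 against 1.34 CPM.

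**Figure D3:**
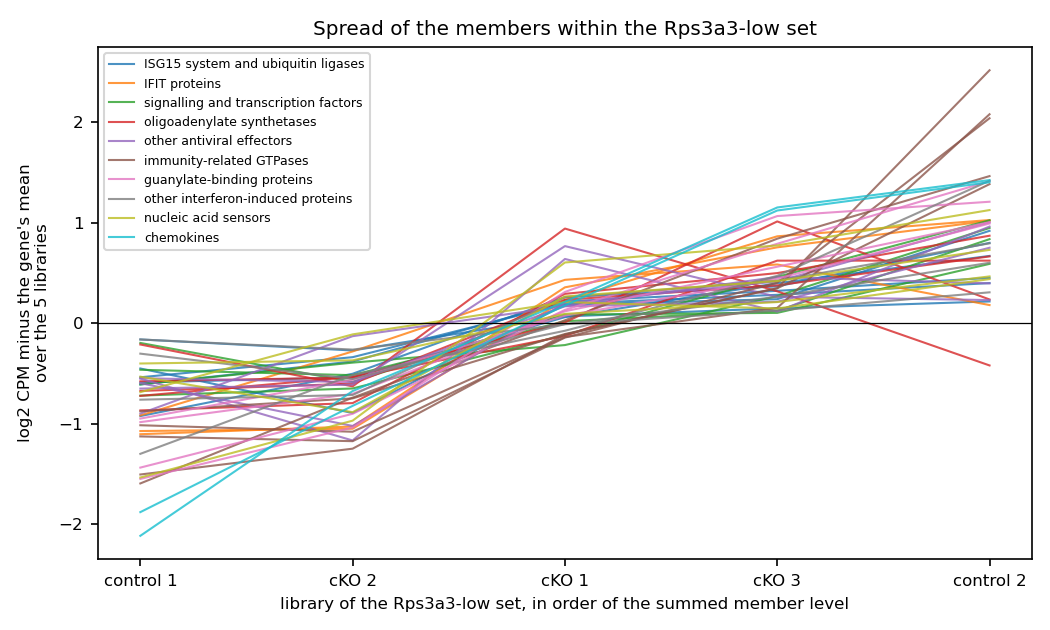
Log2 CPM of each gene in the 5 Rps3a3-low libraries, minus the gene's mean over these libraries, coloured by role; the libraries are ordered by the summed level of the 42 genes, and lines only join values of a gene. Control 1 and cKO 2 lie mostly below 0, and control 2 reaches 2.52 for Igtp.

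For loss of Arid1a the question was whether the interferon-stimulated genes differed between cKO and control. Over all 9 libraries none of the 42 genes was called by edgeR's quasi-likelihood test at an adjusted p under 0.05 and 1.5-fold, where 6.72% of all genes were called. An unadjusted p of 0.05 was passed by 2 of the 42 in edgeR and 2 in DESeq2, against 29.7% of all genes by edgeR. Log2 fold changes were above 0 for 38 genes and below 0 for 4, with a median of 0.38 (0.01 over all genes). All 42 overlapped between the genotypes, while 8.16% of all genes were higher and 8.58% lower in cKO without overlap.

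The gene with the smallest adjusted p was Ifit2. Controls were at 34.6 ± 18.3 CPM (SD, n = 5) and cKO at 66.2 ± 20.8 CPM (SD, n = 4), a log2 ratio of 0.93 with an SE of 0.37 (adjusted p = 0.135 by edgeR). Controls were at 0.316 ± 0.229 CPM (SD, n = 5) of Oas3 and cKO at 0.755 ± 0.447 CPM (SD, n = 4), a log2 ratio of 1.23 with an SE of 0.53 (adjusted p = 0.147 by edgeR). The 4 genes below 0 were all immunity-related GTPases, Igtp at -0.94 (SE 1.5), Irgm2 at -0.67 (SE 1.32), Iigp1 at -0.51 (SE 1.57) and Irgm1 at -0.03, while Tgtp1 of the same group was at 0.42. Without control 2, 3 genes were called higher in cKO by edgeR, Ifit2 at 1.31 (adjusted p = 0.00349), Parp9 at 0.74 (adjusted p = 0.0149) and Dtx3l at 0.62 (adjusted p = 0.0257), and the median was 1.44. Without cKO 3 the median was 0.01, with 21 of the 42 above 0.

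With the library set as a term, 0 of the 42 genes were called (7.61% of all genes), and the sign of most changed: 11 were above and 31 below 0, with a median of -0.20. That direction turned on single libraries, since 39 were above 0 without control 2 (median 0.41) and 20 without cKO 2 (median -0.01). DESeq2 gave 2 genes at an unadjusted p under 0.05 and edgeR 1, Ifit2 at 0.71 (SE 0.27, adjusted p = 0.12). Leaving out control 1 gave 2 calls by edgeR, Xaf1 at -0.61 (adjusted p = 0.0308) and Iigp1 at -1.92 (adjusted p = 0.0385). Leaving out control 2 gave Ifit2 at 1.08 (adjusted p = 0.0088), and leaving out cKO 2 gave Oas3 at 1.06 (adjusted p = 0.0498). No gene was called in more than 1 of these 3 fits.

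Within the 5 Rps3a3-low libraries 0 of the 42 genes were called (3.97% of all genes), with 0 at an unadjusted p under 0.05 by edgeR, against 19.3% of all genes, and 0 by DESeq2. The smallest adjusted p was 0.567. Of the 42, 8 were above and 34 below 0, with a median of -0.15 and standard errors from 0.15 for Trim25 to 1.38 for Igtp, which limits what could be detected for the most variable genes. The sign depended on which control was used, the 2 controls being at the ends of the set for most genes. Without control 2 all 42 were higher in cKO (median 0.77), and without control 1 only 4 were (median -0.79). In these fits 1 control stands alone and is assumed to vary like the cKO libraries. With both controls but without cKO 2, 24 were above 0 (median 0.05).

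In the Rps3a3-high set cKO 4 is the only cKO library, and its values were compared with control 3 to 5 in a fit of all 4 groups that borrows the spread from the others. Of the 42 genes, 0 were called (6.09% of all genes), 0 passed an unadjusted p of 0.05 and the smallest adjusted p by edgeR was 0.295. There were 19 above and 23 below 0, with a median of -0.04. The genotype effect did not differ detectably between the sets for any of the 42 genes, with a smallest adjusted p of 0.947 by edgeR and 0 genes at an unadjusted p under 0.05 by edgeR or DESeq2. Over all genes 0.0131% passed an adjusted p of 0.05 for this difference and 4.05% an unadjusted one.

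**Figure D4:**
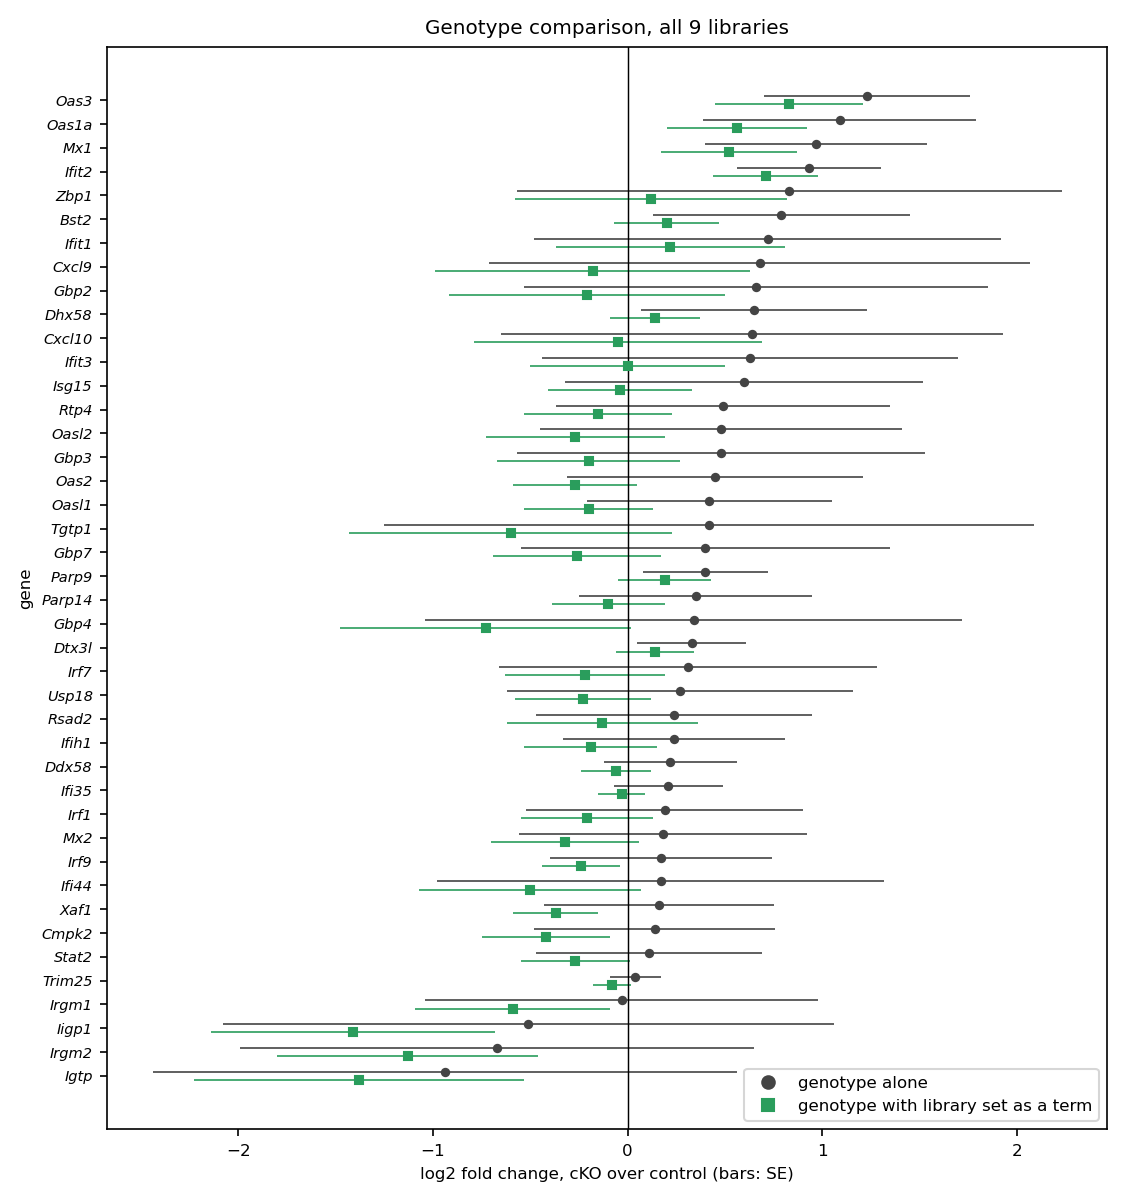
Log2 fold change of cKO over control for the 42 genes in all 9 libraries, with bars of 1 SE, from the fit with genotype alone (grey circles) and with the library set as a term (green squares). The grey median is 0.38 and the green one -0.20, and 0 genes passed an adjusted p of 0.05 in either fit.

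The interferons themselves were hardly read. Of 21 ligand genes listed, 17 had a row and 0 could be tested, and their counts together came to 0 to 8 per library. Ifnb1 and each listed Ifna gene that had a row were at 0 counts in every library, and Ifng reached at most 0.121 CPM. A count of 0 allows up to 0.097 CPM in the library with the fewest counts, for counting error only.

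In the genotype comparison over all 9 libraries 0 of 11 receptor, kinase and STAT genes rose and 3 fell at an adjusted p under 0.05, where 16.3% of all genes passed in either direction. Ifngr2, a chain of the IFN-γ receptor, fell by 0.36 in log2 terms with an SE of 0.06 (adjusted p = 0.00245 by edgeR), the controls at 180 ± 13.2 CPM (SD, n = 5) and the cKO at 140 ± 3.73 CPM (SD, n = 4), without overlap. Ifnlr1, a chain of the type III receptor, fell by 0.51 (SE 0.12, adjusted p = 0.0147 by edgeR), a call that the replicate block ended (adjusted p = 0.057), as did leaving out control 1 where the library set was a term (adjusted p = 0.0621). Jak1 fell by 0.23 (SE 0.07, adjusted p = 0.0315 by edgeR), a call lost without any of control 2 to 5, cKO 2, 3 or 4 (adjusted p = 0.0504 to 0.0712) and under the replicate block (adjusted p = 0.0855). None of the 3 reached 1.5-fold.

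Among 15 tested upstream sensors and adaptors, 1 rose and 0 fell at an adjusted p under 0.05, against 16.3% of all genes in either direction. Mavs, the mitochondrial adaptor downstream of RIG-I and MDA5, was at 56.2, 59.1, 52.0, 51.6 and 52.7 CPM in control 1 to 5 and at 75.8, 87.2, 88.6 and 84.1 CPM in cKO 1 to 4. Every cKO library lay above every control in both library sets. The log2 rise was 0.63 with an SE of 0.07 (adjusted p = 8.87e-05 by edgeR), and it was 0.54 within the Rps3a3-low set (adjusted p = 0.0213 by edgeR). Between the library sets Mavs differed by 0.09. The largest set differences of this list were 0.71 for Samhd1, a dNTP hydrolase, 0.64 for Adar, an RNA-editing enzyme, and 0.59 for Rnaseh2c, a subunit of RNase H2. Of the 15 genes 12 were higher in the Rps3a3-low set. Past 1.5-fold without overlap in this direction were 2, against 1.96% of all genes.

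Of 8 negative regulators, 0 rose and 1 fell, against the same 16.3%, Trim24 by 0.23 (SE 0.07, adjusted p = 0.0331 by edgeR), a call lost without any of control 2, 3 or 4, cKO 2 or 4 (adjusted p of up to 0.0969), with Xist as a covariate (0.0537) and with the replicate block (0.078). Their largest set differences were 0.48 for Socs3, 0.38 for Ptpn6 and 0.24 for Ptpn1. Of the 6 further IRF genes 0 passed an adjusted p of 0.05 for genotype, with 1 at an unadjusted p under 0.05. None was past 1.5-fold between the sets, the largest being Irf5 at 0.46, Irf8 at 0.37 and Irf2 at 0.19.

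Of 54 tested genes in a further list of interferon-induced genes, 34 were past 1.5-fold without overlap and higher in the Rps3a3-low set (1.96% of all genes), and 0 were in the other direction (0.274%). Their median was 1.33. This list too was chosen with earlier results of these data known, so nothing is read from these shares. The largest at a mean of at least 1 CPM were Nlrc5, the transactivator of MHC class I genes, at 5.76, Tgtp2 at 5.74 and F830016B08Rik at 5.54. F830016B08Rik was at 32.7 CPM in control 2 and at 0.0323 to 2.84 CPM in the others. For genotype 2 of the 54 rose and 0 fell at an adjusted p under 0.05, against 16.3% of all genes in either direction. Ifit1bl1, an Ifit1-like gene, rose by 0.74 with an SE of 0.13 (adjusted p = 0.00267 by edgeR), the controls at 3.88 ± 0.39 CPM (SD, n = 5) and the cKO at 6.48 ± 0.851 CPM (SD, n = 4). Ifit1bl2 rose by 0.99 with an SE of 0.19 (adjusted p = 0.00462 by edgeR), at 2.79 ± 0.812 CPM in controls and 5.53 ± 0.664 CPM in cKO (SD, same n). Between the sets these 2 differed by -0.11 and -0.23, against 3.47, 3.05 and 0.81 for Ifit1, Ifit3 and Ifit2 of the same stretch of chromosome 19. With the library set as a term they passed as well, and Ifi27 was lower, at -0.33 (adjusted p = 0.032 by edgeR), where 19.9% of all genes passed. In that fit the replicate block ended the calls of Ifit1bl1 (adjusted p = 0.0779) and Ifit1bl2 (adjusted p = 0.0892).

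In antigen presentation by MHC class I, 9 of 16 genes were past 1.5-fold without overlap and higher in the Rps3a3-low set. Their list had a median of 0.96, and 1.96% of all genes were so. The largest were the peptide transporter gene Tap1 at 3 and the immunoproteasome genes Psmb9 at 2.95 and Psmb8 at 2.10. Earlier results of these data were known when this list was chosen, so nothing is read from the share. For genotype 0 of 16 passed in all 9 libraries, with 1 at an unadjusted p under 0.05 (16.3% and 29.7% of all genes). With the library set as a term 2 passed an adjusted p of 0.05, against 19.9% of all genes. The immunoproteasome gene Psmb10 was higher in cKO at 0.43 (SE 0.11, adjusted p = 0.02 by edgeR), and the proteasome activator gene Psme1 was lower at -0.49 (SE 0.08, adjusted p = 0.00147 by edgeR). Control 3 was the highest of the Rps3a3-high libraries for H2-K1, at 75 against 25.8 to 32.5 CPM, and for B2m, at 191 against 102 to 125 CPM.

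The 50 genes with the largest difference between the sets, higher in the Rps3a3-low set, were taken among 13335 with a mean of at least 1 CPM. Of these, 20 were on the list of 42, 9 were further interferon-induced genes, 2 were in other pathway lists and 19 in no list. Because the lists were chosen with earlier results of these data known, these counts are a description only.

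Markers of other cell types moved with the sets as well. Of 7 macrophage markers 6 were higher in the Rps3a3-low set and 3 were past 1.5-fold without overlap, as were 1.96% of all genes. Their sum was 122 to 159 CPM against 85.3 to 105 CPM. Adgre1 (0.76), C1qa (0.90) and C1qb (1.01) were the 3, while Cd163 went the other way (-0.40). Of 4 leukocyte markers all were higher and 3 were past 1.5-fold without overlap, summing to 42.4 to 51.9 against 22 to 36.2 CPM. Within the Rps3a3-low set the macrophage sum was highest in cKO 1, at 159 CPM, and control 2 with the highest interferon-stimulated levels was at 134 CPM. Of 5 erythroid markers 2 met the same criteria, Hba-a1 (1.19) and Hbb-bt (0.82), and their sum was 733 to 1140 against 483 to 817 CPM. The 5 endothelial markers overlapped between the sets in their sum. Their part in the result was not tested.

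Of 4 tested lymphocyte and 3 tested neutrophil markers 0 were past 1.5-fold without overlap, and of the 6 NK cell and 4 plasmacytoid dendritic cell markers 0 had counts enough to be tested. Lymphocyte markers summed to 4.18 to 4.92 CPM in the Rps3a3-low set and 3.37 to 12.2 CPM in the Rps3a3-high set, the highest value being that of control 3, where Cd8a was at 4.43 CPM against at most 0.301 CPM elsewhere. Cd3e was at 0 CPM in control 2, Siglech was at 0 in 6 of the 9 libraries and Klk1 in all. Xist, which marks female animals, was high in control 2, control 3, cKO 3 and cKO 4, at 745 to 904 CPM. These libraries came from both sets and both genotypes. Within the Rps3a3-low set the Xist-high libraries, control 2 and cKO 3, also had the highest summed levels of the 42 genes. These were 4249 and 2370 CPM, against 1015 to 1868 CPM in the others. The Xist-high control 3 and cKO 4 were at 532.8 and 495.8 CPM, control 4 and 5 at 496.8 and 473.1 CPM. With Xist as a covariate over all 9 libraries, all 42 genes were above 0 for genotype, with a median of 0.51. The part of sex was not tested.

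**Figure D5:**
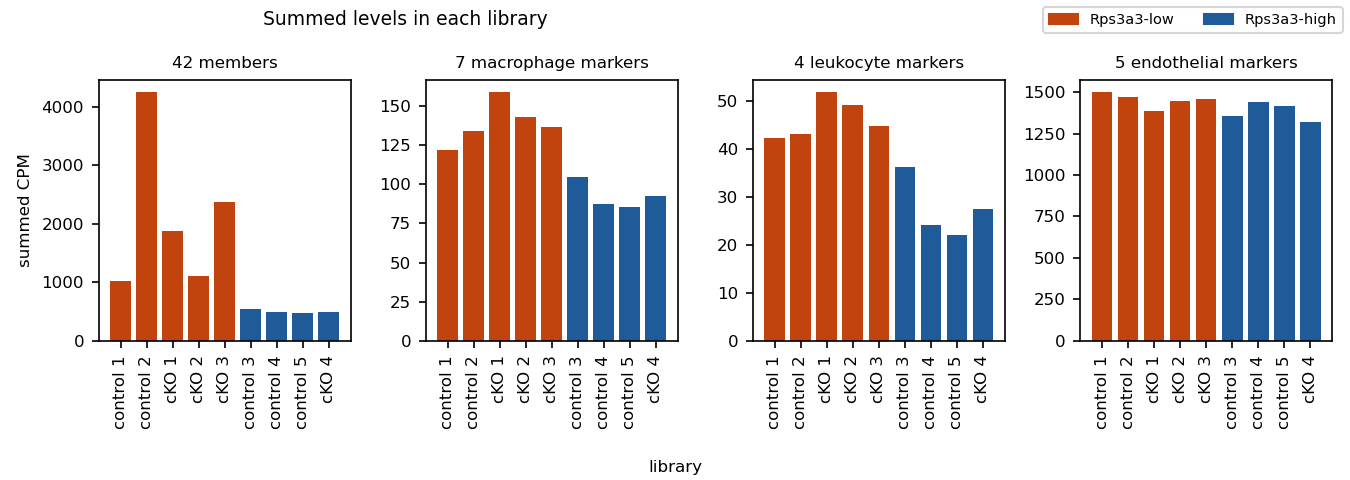
Summed CPM in each library for the 42 interferon-stimulated genes, 7 macrophage, 4 leukocyte and 5 endothelial markers, on axes that start at 0, with the Rps3a3-low set in orange and the Rps3a3-high set in blue. The interferon-stimulated sum reaches 4249 CPM in control 2 and stays between 473.1 and 532.8 CPM in the Rps3a3-high set, while the macrophage sum runs from 85.3 to 159 CPM.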

How the data were processed

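RNA of P7 ventricles was sequenced from 5 control and 4 cKO mice, and samples were grouped by their labels. The authors deposited 1 table of raw counts, a row per gene and a column per library, without normalization. Per the study's methods, the authors made poly(A) libraries with a stranded kit, read them as 75 nt single-end reads and mapped them to mm10; the submitters' processing notes name STAR 2.4.2a and HTSeq 0.6.1. The annotation and the strand setting are not given in the sources used here. The table held 0 columns of other samples.

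Symbols and coordinates were taken from GENCODE M21 (GRCm38), which gave a symbol to 36429 of 38293 identifiers (99.82% of counts), and promoters from RefSeq. Genes were kept by filterByExpr (minimum count 10), scaled by TMM and tested in R 4.3.3 by quasi-likelihood (edgeR 4.0.16), two-sided, with Benjamini-Hochberg adjustment over all 15318 genes tested (15599 within the Rps3a3-low set). Calls needed 1.5-fold in either direction besides an adjusted p under 0.05. CPM are counts over the TMM-scaled total, times 1e6, and per kb values divide by the merged exon length. SE was the log2 fold change over the root of F. The sets were split at 10 CPM of Rps3a3; their difference was not tested. Fits used genotype alone, genotype with library set, the Rps3a3-low libraries alone, and the 4 groups of genotype and set. The study counts hearts as its replicates. Within each genotype, the counts of every pair of libraries differed by more than sampling noise. The scripts were tested on simulated counts.

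The listed genes and gene lists were chosen with earlier results of these data known. Values per library, in part as a range over the Rps3a3-high set, are given for the 12 genes with the largest set difference at a mean of at least 1 CPM, the 3 with the smallest, Irf1, Irf7, Irf9, Stat2 and Isg15, and for Ifit2, chosen after its values were seen; of further lists, up to 3 genes by smallest adjusted p for genotype and up to 3 by set difference, which is not reported here for receptors, kinases and STATs. Alternatives were DESeq2 1.42.0, RLE and upper-quartile scaling, TMM without the 10 most abundant genes, other filters and thresholds, Xist as a covariate, a replicate block, controls alone and leaving out each library. The study's text gives more than 1 number of controls, and all 5 libraries so labelled were used.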

Additional observations from a re-analysis of the deposited data

Results flagged for a closer look

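Within each genotype the libraries were searched for one that lay apart from the rest by Dixon's test, for each of the 42 genes, 84 groups in all. In 32 of them 1 library lay apart, and each time this was control 2, above the other 4 controls. Chance gives about 1 in 20 groups, but the 5 controls hold libraries of both Rps3a3 sets, the contrast on which the genes were chosen, and the genes of 1 library are not independent, so the number is a description only. Within the Rps3a3-low set control 2 was the highest library for 36 of the 42 genes, and Ifit2 and Bst2 were higher in cKO 3. No cKO library lay apart for any of the 42 genes.

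For the ISG15 system and ubiquitin ligases the level in control 2 was 18.9 CPM for Isg15, 86.2 CPM for Parp9, 114 CPM for Parp14, 68.2 CPM for Dtx3l and 108 CPM for Trim25. For the IFIT proteins the level in control 2 was 23.9 CPM for Ifit1, 66.8 CPM for Ifit2 and 16 CPM for Ifit3. For the signalling and transcription factors the level in control 2 was 116 CPM for Irf1, 39.9 CPM for Irf7 and 135 CPM for Stat2. For the oligoadenylate synthetases the level in control 2 was 70.8 CPM for Oasl2. For the other antiviral effectors the level in control 2 was 8.31 CPM for Mx2, 53.4 CPM for Rsad2, 51.1 CPM for Bst2 and 37.9 CPM for Cmpk2. For the immunity-related GTPases the level in control 2 was 809 CPM for Iigp1, 236 CPM for Irgm1, 449 CPM for Irgm2, 459 CPM for Igtp and 19.1 CPM for Tgtp1. For the guanylate-binding proteins the level in control 2 was 170 CPM for Gbp2, 155 CPM for Gbp3, 265 CPM for Gbp4 and 221 CPM for Gbp7. For the other interferon-induced proteins the level in control 2 was 42.8 CPM for Ifi44 and 35.6 CPM for Rtp4. For the nucleic acid sensors the level in control 2 was 33.1 CPM for Ifih1, 58 CPM for Ddx58 and 8.17 CPM for Zbp1. For the chemokines the level in control 2 was 38.9 CPM for Cxcl9 and 8.8 CPM for Cxcl10.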

How the results depend on the processing

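The count of genes past 1.5-fold without overlap between the library sets was 37 as reported, lay between 35 and 37 under the other scalings, filters, fold thresholds, covariate and sample choices, and between 37 and 40 when a library was left out. Its median kept its sign in all of these. For genotype, leaving out a library gave 0 to 3 calls over all 9 libraries and 0 to 2 calls with the library set as a term, against 0 in both as reported. Xist as a further covariate gave 1 call with the set term, Ifit2 at 0.66 (adjusted p = 0.0439 by edgeR); this fit with the set term was chosen after seeing the data. Within the Rps3a3-low set, and for the difference between sets, 0 genes were called in every alternative run, DESeq2 included. Replicate numbers did not pair the samples (correlations of deviations 0.02, 0.04, 0.01 and 0.23), and with the number as a block 0 of the 42 genes were called in each of 3 genotype fits. With this block and the set term, Ifit1bl1 (0.70) and Ifit1bl2 (0.87) no longer passed an adjusted p of 0.05. The Rps3a3-high set has 1 cKO library, so its genotype comparison rests on that library. Genes at a few counts, Tgtp1, Oas3, Mx1 and Zbp1 among them, are limited by depth in the Rps3a3-high set. These genes had counts enough to be tested mainly through the Rps3a3-low libraries, where they were higher.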

Other observations

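Of the 19 genes with the largest set differences that were in no list, some are named here, chosen after their values were seen. A gene in no list can still be interferon-inducible, as Ifi202b below is. Several ordered the Rps3a3-low libraries as the interferon-stimulated genes did. Batf2, which encodes a basic leucine zipper factor, was at 0.662 and 9.73 CPM in control 1 and 2, 2.46, 1.43 and 3.85 CPM in cKO 1 to 3, 0.277, 0.157 and 0.097 CPM in control 3 to 5 and 0.145 CPM in cKO 4 (log2 difference 4.62). The serine protease inhibitor gene Serpina3g was at 1.65 and 20.4 CPM, then 7.78, 7.29 and 17.9 CPM, against 0.609, 0.629, 1.03 and 0.751 CPM in the same order (3.87).

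Others did not. Ptprn2, a receptor-type phosphatase gene, was at 4.78 and 3.62 CPM in control 1 and 2 and 1.99, 2.15 and 1.97 CPM in cKO 1 to 3, against 0.139 to 0.453 CPM in the Rps3a3-high set (3.35). Both controls of the Rps3a3-low set lay above its cKO libraries for Ptprn2. Gm13736 was at 7.97 and 8.89 CPM, then 8.99, 7.26 and 8.05 CPM, against 0.0831, 0.0315, 0.162 and 0 CPM, a log2 difference of 6.97 that rests on few counts in the Rps3a3-high set. In these genes control 2 was not set apart.

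A few varied from library to library within both genotypes. BC023105 was at 169 CPM in control 2, at 1.67 to 12.3 CPM in the other Rps3a3-low libraries and at 0.242 to 1.41 CPM in the Rps3a3-high set. The gene with identifier ENSMUSG00000028269, without a symbol in the annotation used, was at 8.24 and 63.3 CPM in control 1 and 2, at 0, 13.8 and 0.029 CPM in cKO 1 to 3, at 3.52, 3.08 and 0 CPM in control 3 to 5 and at 0 CPM in cKO 4. Ifi202b, an interferon-inducible HIN-200 gene, was at 4.81 and 8.92 CPM in control 1 and 2, 10.9, 3.61 and 8.05 CPM in cKO 1 to 3, 0, 1.20 and 1.58 CPM in control 3 to 5 and 0 CPM in cKO 4 (3.71). The sets did not overlap for BC023105 and Ifi202b, while they overlapped for ENSMUSG00000028269.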
